A study of Yarrowia lipolytica CLIB122 with 6 samples.

Results

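The 100 transcripts described here were those whose levels differed most between libraries of 1 strain of Yarrowia lipolytica, while the averages of the strains stayed close. They were chosen by measured values. A transcript entered when its gene number was below 7000000, its mean over the 6 libraries was at least 10 FPKM and the ratio of its A24 mean to its C24 mean lay between 0.5 and 2. FPKM is the number of sequenced fragments, scaled to the length of the transcript and to the mapped fragments of the library. Of the 6452 transcripts in the table, 6279 had such a number, 5039 of these reached the level and 4822 of these met the ratio. For each of the 4822, the SD of log2(FPKM + 0.1) was taken within each strain, both strains were pooled, and the 100 with the highest pooled SD were kept. All 100 members passed the filter on low values used for the strain comparison.

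RNA-Seq was done on 6 libraries, 3 of A24 and 3 of C24, from cells harvested at 24 h in rich YPD medium, early in logarithmic growth. The labels give only these letters. A24 was read as YlΔA1-FAR, in which a 2 bp deletion made with CRISPR/Cas9 disrupts the A1 gene, and C24 as its control WT-FAR, since this was the study's only RNA-Seq comparison. Both were built in 1 parent strain of mating type MATA, with mutant ura3, leu2 and lys8 alleles and an HA tag on PEX17, and both carry the fatty acyl-CoA reductase gene FAR of Marinobacter aquaeolei under the TEFin promoter. Each strain is thus 1 construct. The labels name the organism as CLIB122 and do not say whether libraries of a strain came from separate cultures, so the spread described here, and every p-value, concerns these libraries and may be technical. The A1 gene was not analysed here, so the reading of the letters was not checked against the data.

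Y. lipolytica is an oleaginous yeast, one that stores much of its carbon as lipid, and is engineered for products made from fatty acyl-CoA such as fatty alcohols. FAR turns fatty acyl-CoA into fatty alcohol, and A1 is weakly similar to YND1, the Golgi apyrase gene of Saccharomyces cerevisiae. The spread between libraries of a single genotype is the variation that a difference between genotypes has to exceed, and it is seldom the same for every transcript. The reference table used here pairs 89 of the 100 members with YALI1 locus tags of strain CLIB89 and holds no product names, so no function is given for any of them. No sequences of these genes were used here.

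The members spread over the libraries far more than the transcripts around them, which is how they were selected. Their pooled SD had a median of 0.23 on the log2 scale and ran from 0.20 to 0.70, against a median of 0.064 over all 4822. In plain ratios, the highest A24 library was a median of 1.39 times the lowest for the members, against 1.09 times over all 4822. Among the C24 libraries the same ratio was 1.33 for the members and 1.08 over all. Ratios above 1.5 were found in 27 members among A24 libraries and in 20 among C24 libraries. Ratios above 2 were rare, with 3 members in A24 and 3 in C24. Most members therefore differed between libraries by less than 1.5-fold within either strain. The last members inside the limit were 2911131 (YALI1_D35210g) and 2910786 (YALI1_D08850g), both with a pooled SD of 0.199. Just outside stood 2910023 (YALI1_C09667g) at 0.198 and 2906480 (YALI1_A19898g) at 0.197, so the limit cut through a continuous range of spread.

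The most variable member was 2911136 (YALI1_D23653g), with 8.51, 27.46 and 24.76 FPKM in the A24 libraries and 14.98, 22.37 and 14.29 FPKM in the C24 libraries. A single A24 library, replicate 1, stood apart on the low side, 3.23-fold below the highest, and the strains overlapped. The same library was lowest for 2910117 (YALI1_C17078g), which had 11.38, 28.31 and 31.76 FPKM in A24 and 23.69, 20.68 and 26.73 FPKM in C24. Without A24 replicate 1 the pooled SD of 2911136 was 0.26 in place of 0.70, and that of 2910117 was 0.15 in place of 0.59. These were the members with the highest A24 spread, and 1 library carried most of it in each.

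Other members of the leading 10 had a different library apart. For 2907044 (YALI1_B08580g), A24 replicate 3 was high, with 15.99, 10.95 and 29.84 FPKM in A24, against 23.81, 23.05 and 25.40 FPKM in C24. Its C24 libraries lay within a log2 SD of 0.07, so the spread belonged to A24 libraries only. In 2907493 (YALI1_B15307g) the picture was the same, with 16.80, 19.24 and 30.92 FPKM in A24 and 18.53, 19.39 and 18.72 FPKM in C24. For 2906671 (YALI1_B23609g), for which replicate 3 was the highest in both strains, values were 12.01, 10.78 and 18.57 FPKM in A24 and 16.00, 17.26 and 23.42 FPKM in C24. The C24 libraries set 2907441 apart, which had 11.27, 10.82 and 15.59 FPKM in A24 and 14.14, 23.44 and 10.53 FPKM in C24, with replicate 2 the high one in C24. No locus tag was matched to 2907441.

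Some leading members were spread in both strains. For 2908522 (YALI1_F32312g) the values were 13.02, 24.68 and 14.15 FPKM in A24 and 20.54, 22.56 and 11.15 FPKM in C24, with A24 replicate 2 high and C24 replicate 3 low. For 2909185 (YALI1_C00962g) they were 14.35, 27.86 and 25.07 FPKM in A24 and 32.19, 16.77 and 25.30 FPKM in C24. Replicate 1 was thus the lowest A24 library and the highest C24 library of that gene. For 2907311 (YALI1_B18205g) the values were 10.94, 21.15 and 14.84 FPKM in A24 and 4.92, 8.05 and 10.85 FPKM in C24. This was the only one of the leading 10 in which the strains did not overlap, with A24 above C24 throughout although the closest libraries differed by less than 0.1 FPKM.

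**Figure D1:**
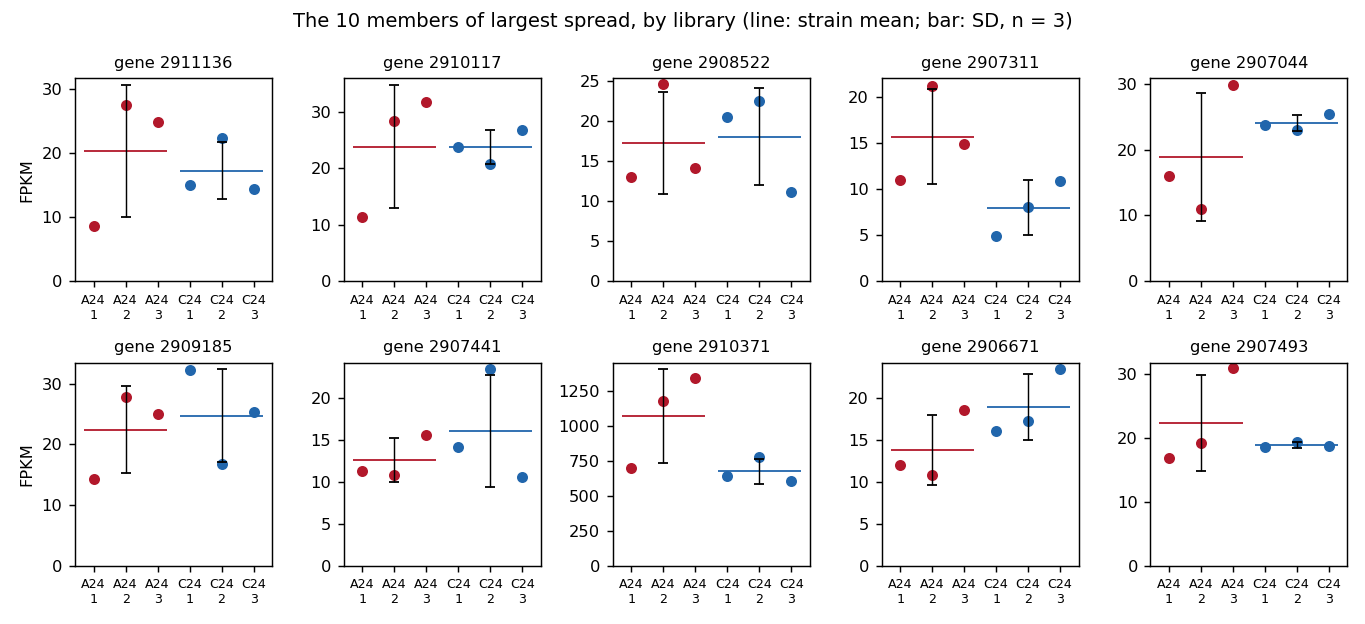
FPKM of the 10 members with the highest pooled SD, on a linear axis, with 1 point for each of the 3 A24 and 3 C24 libraries. Lines mark the strain means and bars the SD in FPKM (n = 3). In 2911136 a single A24 library lies at 8.51 FPKM below the others of its strain, and in 2907044 a single A24 library lies above at 29.84 FPKM.

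Spread went with level. The members had a median mean level of 21.7 FPKM, against 63.0 FPKM over all 4822 transcripts, and 77 of the 100 lay under 50 FPKM. Between 10 and 20 FPKM, 42 of 683 transcripts were members, or 6.15%, and the median pooled SD of all transcripts in that range was 0.092. Between 20 and 50 FPKM the members were 35 of 1384, or 2.53%. Between 100 and 300 FPKM they were 4 of 1063, or 0.376%, where the median SD of all transcripts was 0.052. Weakly expressed transcripts thus made up most of the list and were also more spread as a class. The number of fragments behind each FPKM value is unknown, so the part of counting error in the weak members was not tested.

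At higher levels few transcripts were members. Above 1000 FPKM 4 of 260 transcripts were members, or 1.54%, a larger share than between 100 and 300 FPKM. The SD of the members themselves was much alike over the levels, with a median of 0.23 under 20 FPKM and 0.24 at 300 FPKM or more, since 1 limit was set for all levels. When transcripts were ranked by the ratio of their SD to that of transcripts of like level, 63 of the 100 remained among the highest 100.

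**Figure D2:**
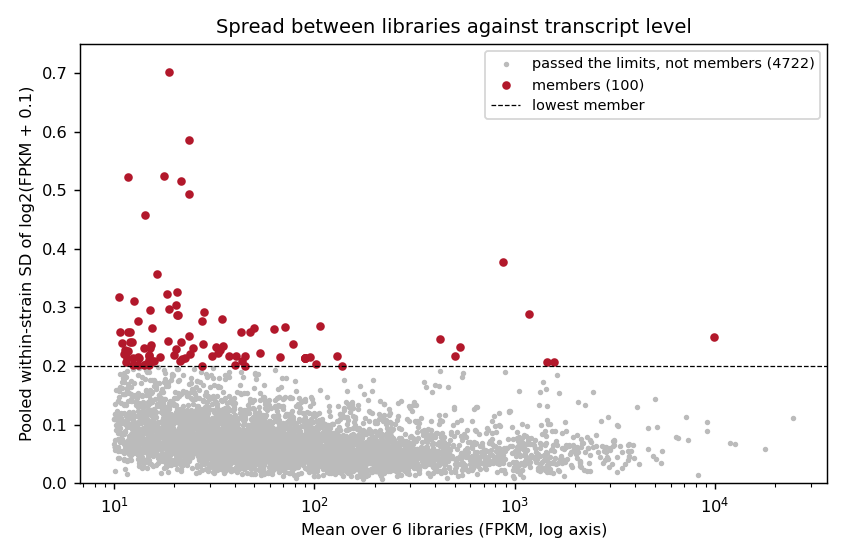
Pooled within-strain SD of log2(FPKM + 0.1) against the mean FPKM over 6 libraries (log axis) for the members and for the other transcripts that met the limits on number, level and ratio. The members lie on or above the dashed line at 0.199, most of them below 50 FPKM, with 8 members at 300 FPKM or more.

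The strain that carried the larger spread was A24 for 55 members and C24 for 45. Over all 4822 transcripts A24 had the larger SD in 56.0%. The SD among A24 libraries had a median of 0.24 over the members and ran from 0.04 to 0.93. Among C24 libraries it had a median of 0.22 and ran from 0.02 to 0.58. In 17 members the A24 SD was more than 3 times the C24 SD, as in 12.3% of all 4822. In 8 members the C24 SD was more than 3 times the A24 SD, as in 7.55% of all. A member with spread in A24 alone was 2912630 (YALI1_E31034g), with 16.43, 11.51 and 21.69 FPKM in A24 and 20.30, 19.89 and 20.57 FPKM in C24. Its A24 SD was 0.46 and its C24 SD 0.02. The converse was seen in 2912545 (YALI1_E29074g), whose values were 39.91, 38.77 and 42.49 FPKM in A24 and 32.03, 25.72 and 20.66 FPKM in C24. Its A24 SD was 0.07 and its C24 SD 0.32.

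**Figure D3:**
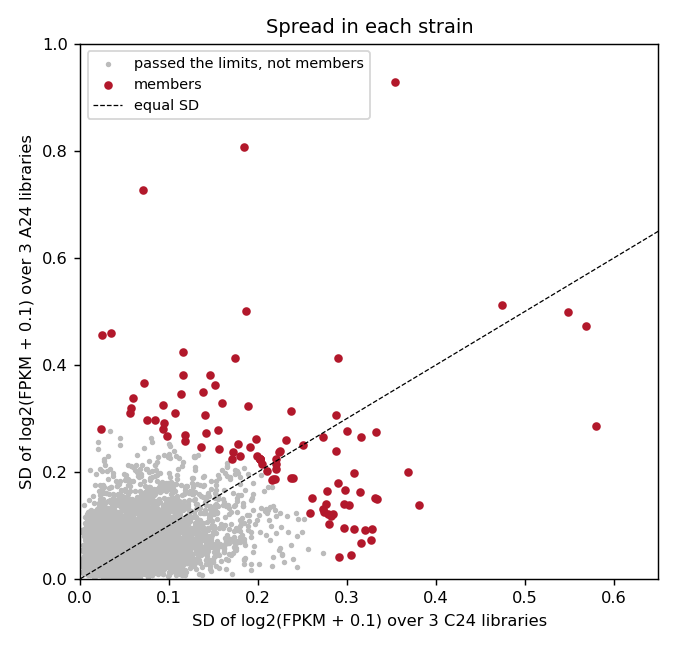
SD of log2(FPKM + 0.1) among the 3 A24 libraries and among the 3 C24 libraries for the members and the other transcripts that met the limits. The members fill both sides of the diagonal, 55 with the larger SD in A24 and 45 with the larger SD in C24, and 27 reach 0.2 in both strains.

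To ask whether a transcript variable in 1 strain was also variable in the other, transcripts were ranked on the libraries of each strain alone, and the SD was read in the strain that the ranking did not use. The 100 transcripts with the highest A24 SD had a median C24 SD of 0.123, against 0.055 over all 4822. In 88 of these 100 the C24 SD was above the median of all. The 100 with the highest C24 SD had a median A24 SD of 0.135, against 0.062 over all, and 87 of these 100 lay above the median of all. Weak transcripts spread more in both strains, so the same was read within ranges of level. Between 20 and 50 FPKM, the 37 transcripts of the A24 ranking had a median C24 SD of 0.107, against 0.066 for all transcripts of that level. Between 50 and 100 FPKM the A24 ranking held 10 distinct transcripts, after a set of 5 with identical values was counted once, and their median C24 SD was 0.133, against 0.053. In each of the 6 ranges of level, with identical transcripts counted once, the transcripts ranked on either strain had the higher median SD in the other one. Several of these medians rested on few transcripts. In successive ranges from 50 FPKM up, the C24 ranking held 5, 4, 2 and 2 distinct transcripts and the A24 ranking 10, 5, 10 and 6. A range of FPKM does not fix the number of fragments, since FPKM is scaled to transcript length, and length was not considered. Whether counting error alone gives the higher SD in the other strain was therefore not tested.

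The lists ranked on A24 alone and on C24 alone shared 25 transcripts, or 25% of each list, where each list was 2.07% of the 4822. All 25 were members, which was fixed in advance. The lowest SD was 0.212 in the A24 list and 0.202 in the C24 list, both above the lowest pooled SD of the members, 0.199. Of the 25, 5 had identical values in every library, which left 21 distinct measurements, or 21.9% of the 96 distinct ones in each list. They included 2906657, with 16.75, 23.94 and 17.72 FPKM in A24 and 23.34, 16.95 and 25.09 FPKM in C24, and 2907311, given above. Replicate 2 was the highest A24 library and the lowest C24 library of 2906657. No locus tag was matched to it. The A24 list held 65 of the 100 members and the C24 list 60, so that a good part of the membership rested on the libraries of 1 strain.

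In each member, the library that stood farthest from the other libraries of its strain was identified in the strain with the larger variance. No library accounted for the whole list. A24 replicate 1 stood apart in 21 members, A24 replicate 2 in 17, A24 replicate 3 in 17, C24 replicate 1 in 4, C24 replicate 2 in 23 and C24 replicate 3 in 18. C24 replicate 1 was also the least frequent of the 6 over all 4822 transcripts, at 10.0%. Some libraries leaned to 1 side. A24 replicate 2 stood apart on the low side in all 17 of its members and A24 replicate 3 on the high side in all 17 of its own. A24 replicate 1 was low in 15 of 21, and C24 replicate 2 was low in 19 of 23. C24 replicate 3 was high in 11 and low in 7, and C24 replicate 1 high in 2 and low in 2. Over all 4822 transcripts, A24 replicate 2 stood apart on the low side in 13.5% and A24 replicate 3 on the high side in 11.8%. C24 replicate 2 stood apart on the low side in 16.8%. These shares were near those of the members. On the low side, however, A24 replicate 3 stood apart in 11.7% of all transcripts and in 0 members. A24 replicate 2 was high in 2.94% of all and in 0 members, and C24 replicate 3 was low in 3.30% of all. For A24 replicate 1 on the low side, the share was 15 of 100 members, against 4.73% of all 4822. On the high side it was 6 of 100 members, against 11.5% of all, so over all transcripts this library leaned the other way. Of the 6 members in which A24 replicate 1 was high, 5 had identical values in every library, described below as 1 measurement, so that 17 distinct members had A24 replicate 1 apart. The leading member with C24 replicate 3 high was 2907877 (YALI1_F17912g), with 18.76, 14.26 and 17.03 FPKM in A24 and 10.25, 13.00 and 17.14 FPKM in C24.

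**Figure D4:**
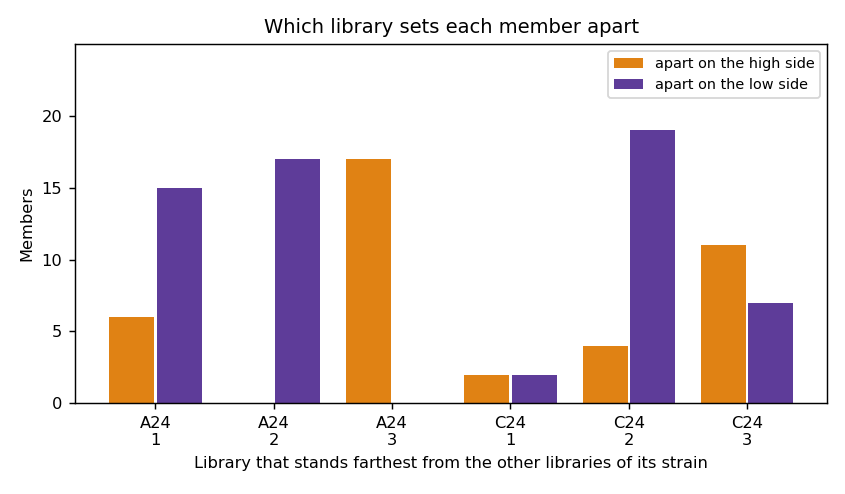
Number of members for which each library stood farthest from the other libraries of its strain, on the high or on the low side. A24 replicate 2 has bars on the low side only (17 members), A24 replicate 3 on the high side only (17 members) and C24 replicate 2 mostly on the low side (19 members).

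When the library that stood apart was left out of each member, the median pooled SD of the members was 0.144 and 12 of the 100 were still at or above the lowest SD of the list. The member with the most spread left was 2907311, at 0.40. In 96 members the remaining SD was above 0.064, the median of all transcripts with their libraries complete. Leaving out the most distant library lowers any SD, so this states only how much of each member's spread lay in that library. In 39 members the closest pair of libraries in the wider strain lay within 20% of the range of that strain, which was also seen in 36.6% of all 4822.

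The members with the lowest and the highest levels differed in their lowest A24 library and in the place of C24 replicate 2. A24 replicate 3 was most often the highest A24 library in both groups. Among the 77 members under 50 FPKM, A24 replicate 2 was the lowest A24 library in 44 and A24 replicate 3 the highest in 48. In C24, replicate 2 was the lowest library in 49 and replicate 3 the highest in 43. The same directions were common over all 4822 transcripts, where A24 replicate 2 was lowest in 46.8%, A24 replicate 3 highest in 37.7%, C24 replicate 2 lowest in 54.0% and C24 replicate 3 highest in 46.1%. Once the libraries had been scaled by median-of-ratios, these shares over all transcripts were 28.8%, 30.2%, 32.7% and 29.7%. Among the 77 members A24 replicate 3 was then highest in 44 and C24 replicate 2 lowest in 43. After scaling to equal totals, C24 replicate 2 was lowest in 59.6% of all transcripts and in 51 of the 77 members. A24 replicate 3 was then highest in 25.2% of all and in 41 of the 77. How often A24 replicate 2 was lowest and C24 replicate 3 highest among the members was not counted after scaling.

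All 8 members of at least 300 FPKM had A24 replicate 1 as the lowest A24 library and C24 replicate 2 as the highest C24 library. The arrangement was picked out after the values were seen and is given as a description. It was found in 71 of the 695 other transcripts of at least 300 FPKM that met the limits, or 10.2%, and in 5 of the 77 members under 50 FPKM. Over the 8, the median deviation from the strain mean was -0.28, 0.08 and 0.22 on the log2 scale in A24 replicates 1, 2 and 3, and -0.11, 0.21 and -0.09 in C24 replicates 1, 2 and 3. The strongest of the 8, and of all members, was 2910205, with 9513, 12873 and 12816 FPKM in A24 and 7265, 9547 and 6918 FPKM in C24. Its strains overlapped through A24 replicate 1 and C24 replicate 2. No locus tag was matched to 2910205.

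The other 7 had the same lowest A24 library and the same highest C24 library. These 7 also shared A24 replicate 3 as the highest A24 library, while C24 replicates 1 and 3 changed order among them. For 2908177 (YALI1_F14729g) the values were 1407, 1750 and 1942 FPKM in A24 and 1321, 1642 and 1357 FPKM in C24. For 2912897 (YALI1_E41061g) they were 1286, 1624 and 1745 FPKM in A24 and 1248, 1547 and 1246 FPKM in C24. In both, the A24 and C24 ranges overlapped and A24 replicate 1 lay below C24 replicate 2. For 2911301 (YALI1_D21476g) the values were 947, 1425 and 1553 FPKM in A24 and 964, 1165 and 996 FPKM in C24. For 2910371 (YALI1_D00145g) they were 696, 1178 and 1338 FPKM in A24 and 637, 775 and 608 FPKM in C24. With a pooled SD of 0.38, 2910371 was the only member of at least 300 FPKM among the leading 10. For 2910437 (YALI1_D13388g) the values were 424, 539 and 584 FPKM in A24 and 499.9, 647 and 488 FPKM in C24, and the A24 mean was 0.946 times the C24 mean. For 2910068 (YALI1_C24755g) they were 399, 507 and 601 FPKM in A24 and 471, 515 and 514 FPKM in C24, with strain means that were almost equal. The 8 members stayed 8 of 8 in this arrangement after median-of-ratios scaling and after scaling to equal totals. The members together took 1.41, 1.83 and 1.87% of the summed FPKM in A24 replicates 1, 2 and 3 and 1.30, 1.56 and 1.29% in C24 replicates 1, 2 and 3.

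**Figure D5:**
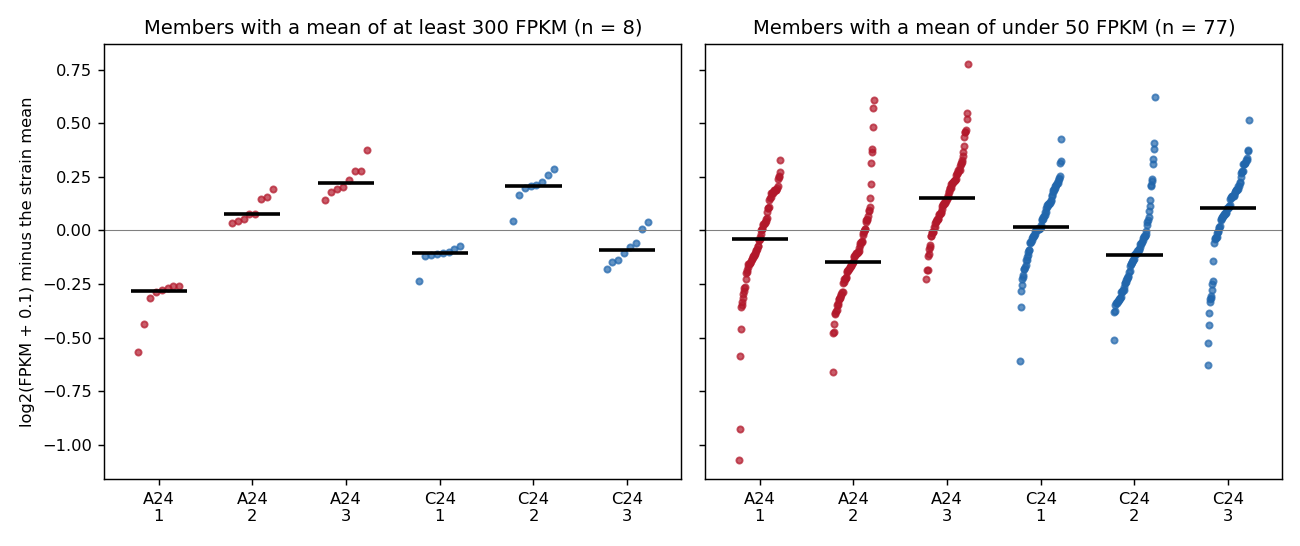
Deviation of log2(FPKM + 0.1) from the strain mean in each library, for the 8 members of at least 300 FPKM (left) and the 77 members under 50 FPKM (right). Each point is 1 member, sorted within a library, and the black bar is the median. The strong members are low in A24 replicate 1 (median -0.28) and high in C24 replicate 2 (median 0.21), and the weak members have medians of -0.15 in A24 replicate 2 and 0.15 in A24 replicate 3.

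Beside their spread, some members shared an annotation. Of the 100 members, 4 were annotated as pseudogenes in the reference table, or 4.00% of the list, against 14 of all 4822, or 0.290%. They were 2910371, 2911301, 2908501 (YALI1_F11855g) and 2908930 (YALI1_F19586g). In 2908501 the values were 371, 464 and 529 FPKM in A24 and 327, 451 and 386 FPKM in C24. In 2908930 they were 53.27, 84.17 and 81.02 FPKM in A24 and 49.64, 54.14 and 54.14 FPKM in C24. Of the 4, 3 are among the 8 members of at least 300 FPKM described above, so the sets overlap. A24 replicate 1 was the lowest A24 library in all 4, beside 42 of the 100 members and 21.2% of all 4822. The A24 SD exceeded the C24 SD in all 4, beside 55 of the 100 members and 56.0% of all. These traits were thus not particular to the pseudogenes. The annotation belongs to CLIB89, a different strain from the one sequenced, so it does not say whether these genes are intact in A24 or C24.

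Another 5 members were not separate measurements. The gene numbers 2905917, 2906733, 2909573, 2911065 and 2912349 had the same values in every library, 99, 73.44 and 78.93 FPKM in A24 and 95.66, 82.26 and 108.90 FPKM in C24. The list thus held 96 distinct measurements, and the 4822 transcripts held 4813. Whether they are near-identical copies between which reads were split was not tested, so the level of each is uncertain. None of the 5 was matched to a locus tag.

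The members were scattered over the genome. Chromosome A held 7 members, B 13, C 12, D 15, E 19 and F 23, which was between 1.71% and 2.24% of the transcripts that met the limits on each. No members were direct neighbours in the order of the reference table. YALI1_C03513g and YALI1_C03596g had 3 genes between them and stood apart in different libraries. YALI1_F31292g and YALI1_F31416g had 5 genes between them and shared C24 replicate 2 on the low side. For 2908749 (YALI1_F31292g) the values were 11.46, 12.73 and 14.16 FPKM in A24 and 11.93, 8.36 and 10.73 FPKM in C24. For 2908740 (YALI1_F31416g) they were 18.25, 14.07 and 15.93 FPKM in A24 and 14.40, 11.40 and 15.14 FPKM in C24. Within 25 genes of a chromosome end lay 5 of the 89 members with a tag, or 5.62%, against 143 of 4715 transcripts with a tag, or 3.03%. Within 10 genes the shares were 2.25%, from 2 members, and 0.785%. Within 50 genes they were closer, at 8.99% and 7.02%. The 5 members within 25 genes were YALI1_A00375g, YALI1_A22129g, YALI1_B00049g, YALI1_B30163g and YALI1_D00145g.

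The strain comparison was fitted with limma across 6052 transcripts. With an adjusted p-value under 0.05, 19 members were higher in A24 and 12 were lower, beside 26.8% of all transcripts higher and 40.4% lower. Since the rule kept only transcripts with close strain means and the widest spread, nothing is read from these counts. The values of A24 and C24 did not overlap in 20 members, beside 71.3% of all transcripts, and all 20 were among the 31 called. The other 11 called members had overlapping values. Calls with a log2 fold change beyond 1 as well made up 6.56% of all transcripts. The ratio limit left 2 such calls among the 4822 and none among the members, whose log2 differences ran from -0.99 to 0.99.

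Because limma pools the spread of transcripts of like level, the SE it gave to a member was below the SE from that member's own libraries in all 100. The median SE was 0.136 by limma and 0.188 from the members' own libraries. The SEs printed after ± below are those of limma. From their own libraries, the SE was 0.43 for 2907311, 0.19 for 2912545, 0.31 for 2910371 and 0.20 for 2910205. 2907311 had a log2 difference of 0.99 ± 0.29 (SE, n = 3 each) with a limma adjusted p of 0.0146. 2912545 had a log2 difference of 0.65 ± 0.13 (SE, n = 3 each) with a limma adjusted p of 0.00212, and its A24 libraries all lay above its C24 libraries. In 2910371 the difference was 0.62 ± 0.21 (SE, n = 3 each) with a limma adjusted p of 0.0253, although its A24 and C24 values overlapped. In 2910205 it was 0.57 ± 0.14 (SE, n = 3 each) with a limma adjusted p of 0.00647, again with overlap through A24 replicate 1. The 31 calls became 19 without the trend in limma and 17 without a filter on low values, and ran from 22 without A24 replicate 2 to 42 without A24 replicate 1.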

How the data were processed

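The authors removed rRNA by the RNase H method, made random-primed libraries, sequenced them on BGISEQ-500, filtered reads with SOAPnuke and estimated expression with RSEM. The submitters' processing notes list HISAT2 2.0.4, Bowtie2 2.2.5, RSEM 1.2.12 and DESeq2 1.4.5. The genome build and annotation are not given in the sources used here. The authors deposited FPKM values per transcript and library. Fragment numbers are unknown, so no counting error could be given. The summed FPKM was 1266080 to 1303560 in A24 and 1208550 to 1226330 in C24. No relative depth was derived from the ratios of low values between libraries.

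All 6 libraries were used, grouped by the strain letters of the labels. The 6052 of 6452 transcripts that averaged 1 FPKM or more were compared on log2(FPKM + 0.1) with limma 3.58.1 (R 4.3.3, lmFit, eBayes with trend), with Benjamini-Hochberg adjustment over all of them. The comparison and the ranking were also run on simulated data. The simulated ranking set its variable transcripts far apart from the rest, unlike the continuous spread found here, so it checked only the code. A fold change on this scale understates that of weak transcripts. NOISeq, which the study names, was not run. With 3 libraries against 3, an exact permutation test of a single value cannot go below 0.1, so none was used. Tables were handled in Python 3.11 with pandas 2.3.3 and numpy 2.4.6 and plots drawn with matplotlib 3.10.9.

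Members and lists were chosen with earlier results of these data known. Members are named if they are the 10 with the highest SD, the 5 with the highest level, the leading one for each library and direction, the closest to the limit of the list, or near neighbours. The other members of at least 300 FPKM, those with identical values, those annotated as pseudogenes and those near chromosome ends were named after their values were seen. Locus tags, chromosomes and gene order came from the RefSeq table of assembly ASM176148v1, to which 6073 of 6452 numbers matched. Gene lists by product, promoter motifs and protein comparisons were not analysed here. Alternatives were other pseudocounts, level limits, scalings and rankings, a replicate block, and the fit without each library in turn.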

Additional observations from a re-analysis of the deposited data

How the results depend on the processing

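Membership depended most on the level limit and on the libraries. Of the 100 members, 12 stayed among the highest 100 with a mean of at least 1 FPKM, since weaker transcripts then entered, 39 with at least 30 FPKM, which removes the weak members, 63 when ranked against transcripts of like level, and, in rankings added after seeing the data, 65 with A24 libraries alone and 60 with C24 libraries alone. Without 1 library, between 65 and 79 stayed, with the fewest without C24 replicate 2. The other alternatives kept 81 to 100, scaling of the libraries 89 to 92. The median SD of the 100 members, with the list itself kept, ran from 0.219 to 0.257. The 31 members called between strains became 17 with no filter on low values and 19 without the trend. Without 1 library they ran from 22 to 42, and the calls over all 6052 transcripts stayed within 1.5 times 4067. With the replicate number as a block, the replicate block gave 45 called members and 4251 calls over all transcripts. Deviations of libraries with the same number correlated at -0.02, 0.04 and 0.08 across transcripts. A correlation cannot see a shift shared by all transcripts of a library, so whether the numbers pair the libraries is unknown. Median-of-ratios and equal-total scaling, added here after seeing the data, left A24 replicate 3 highest in 44 and 41 of the 77 members under 50 FPKM. C24 replicate 2 was lowest in 43 and 51 of them. Over all 4822 transcripts the same scalings put A24 replicate 3 highest in 30.2% and 25.2% and C24 replicate 2 lowest in 32.7% and 59.6%. The unknown number of fragments limits what can be said of members near 10 FPKM.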

Other observations

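Rows outside the limit on gene number also held variable transcripts. Of the 111 with a late number or a BGI_novel identifier that met the level and ratio limits, 20 had a pooled SD at or above the lowest of the members, and the median over the 111 was 0.112. The most spread was BGI_novel_G000027, with 4.51, 3.77 and 20.79 FPKM in A24 and 13.28, 7.72 and 13.66 FPKM in C24. Its A24 replicate 3 was the high library, as in many weak members. For 7009548 the values were 11.60, 32.28 and 27.32 FPKM in A24 and 18.29, 19.65 and 23.58 FPKM in C24, with A24 replicate 1 low as in 2911136. With these rows ranked too, 81 of the 100 members stayed among the highest 100.

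Among the transcripts that met the limits but were no members, a second set of 5 numbers also had identical values in every library, 9.98, 9.41 and 10.17 FPKM in A24 and 10.60, 9.88 and 10.75 FPKM in C24. Of the 5 identical members, 4 had a number that differed by 1 or 2 from a number of this second set (2906733 and 2906734, 2909573 and 2909571, 2911065 and 2911064, 2912349 and 2912350). The sets differed in spread, with pooled SDs on either side of the limit of the list.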
